A study of Mus musculus with 8 samples.

Results

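The genes described here are 10 transcription factors of the secretory lineages of the intestine, namely Atoh1, Sox9, Spdef, Gfi1, Foxa3, Neurog3, Neurod1, Pou2f3, Bhlha15 and Creb3l1. They were chosen by symbol, each symbol stood in 1 row of the 27998 gene rows, and all 10 had UMIs (unique molecular identifiers, each standing for 1 captured transcript) in both matrices. Single-cell RNA sequencing had been done on EpCAM-positive, DAPI-negative cells sorted from small intestinal crypts of adult C57BL/6 mice. KO mice were homozygous Ctnnb1 Δi.enh animals, in which ieCtnnb1, an enhancer of the beta-catenin gene Ctnnb1, had been deleted by genome editing. WT mice were H11 i.enh animals, which carried a transgene at the H11 locus with the Shh promoter, the ieCtnnb1 core and a LacZ-iCre reporter, so the groups differed in this transgene too and its part cannot be told apart from that of the deletion. The labels list 4 samples per group, whereas the values came as 1 matrix per group with animals pooled and the same suffix on every barcode, so each group is 1 sample, no test between groups could be made and every interval below covers counting error only.

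Stem cells at the crypt base give rise to an absorptive lineage, the enterocytes, and to secretory lineages, which are Paneth cells (antimicrobial defensins and lysozyme), goblet cells (mucus), enteroendocrine cells (hormones) and tuft cells (chemosensing). Notch signalling between neighbouring cells keeps Atoh1 off in most progenitors, and a cell that escapes it can turn on Atoh1, a basic helix-loop-helix (bHLH) factor needed for the secretory fates. Spdef and Gfi1 act after Atoh1 in goblet and Paneth cells, Foxa3 and Creb3l1 belong to the goblet programme, Bhlha15 (Mist1) builds up the secretory apparatus, and Sox9 is active in crypt progenitors and is required for Paneth cells. Neurog3 starts the enteroendocrine fate and is transient, Neurod1 follows it, and Pou2f3 is the master factor of tuft cells.

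Cells were sorted into gates by the share of their UMIs in product genes, with no member among them. A gate needed at least 40% of UMIs in Paneth products, 2% in goblet products, 0.5% in enteroendocrine products, 0.1% in tuft genes or 1.6% in enterocyte genes, and the remaining cells were gated as stem (0.05% in stem genes such as Lgr5 and Olfm4) or else cycling (0.07% in mitotic genes). Of the cells with at least 2000 UMIs, 9929 in WT and 5623 in KO, the Paneth gate held 3260 and 1004, the goblet gate 1545 and 648, the enteroendocrine gate 164 and 98, the tuft gate 86 and 48, the stem gate 1398 and 694, the cycling gate 1224 and 807 and the enterocyte gate 1059 and 961. Ungated were 982 cells in WT (9.89%) and 1283 in KO (22.8%), so the gates left out a larger share of KO cells. KO cells were deeper in every gate, with medians of 18159.5 against 6258 UMIs for goblet-gated and 45086 against 22923 UMIs for Paneth-gated cells, and 57 barcodes occurred in both matrices. Paneth products also made up 27127 to 90414 CPM (UMIs per 1000000 UMIs of a gate) in every other gate, including enterocytes, and in ungated cells, where the highest value lay. Whether these UMIs were free RNA was not tested. The level of each factor in enterocyte-gated cells is given too, as a low level to compare with. Ctnnb1 itself was lower in KO in each of the 7 gates, with log2 ratios of KO to WT from -0.78 to -0.28, and only in the enteroendocrine gate did its interval reach 0 (-0.60 to 0.04). The medians of all genes in these gates were below 0 too, from -0.36 to -0.02. Those of genes of like exon length ran from -0.56 to -0.18, with -0.51 against -0.62 for Ctnnb1 in the stem gate and -0.26 against -0.28 in the enteroendocrine gate. Immune markers were at 0 to 3.03 CPM outside the tuft gate, where a single one of the 6 markers, Ptprc, gave 42.4 CPM in WT and 8.49 CPM in KO and the other 5 were at 0, stromal and erythroid markers were under 1 CPM in every gate, and of the 2 endothelial markers Cdh5 was at 0 in the enteroendocrine gate, where Pecam1 reached 10.8 CPM in WT.

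Atoh1, Neurog3, Neurod1 and Bhlha15 are bHLH proteins, a family that binds the E-box CANNTG, and several of the factors are known to lie downstream of each other. Promoter entries from RefSeq (GRCm38.p6) were found for 7 of the 10 factors. The stretch before the start of transcription is printed for 5 of them, 3 that were highest in goblet-gated cells (Atoh1, Spdef, Foxa3), the starter of the enteroendocrine fate (Neurog3) and the Paneth-gated factor (Bhlha15), each 5′ to 3′ on the strand of the gene with every CANNTG in capitals. The motif is the same on both strands, and of 32817 promoter windows of 250 bases 66.2% held at least 1 match, 13.01% held CAGCTG and 14.5% held CAGATG on either strand. The Atoh1 window is chr6:64728875-64729124 (plus strand), that of Spdef is chr17:27728956-27729201 (minus), that of Foxa3 is chr7:19023540-19023789 (minus), that of Neurog3 is chr10:62132840-62133089 (plus) and that of Bhlha15 is chr5:144190036-144190285 (plus).
Atoh1: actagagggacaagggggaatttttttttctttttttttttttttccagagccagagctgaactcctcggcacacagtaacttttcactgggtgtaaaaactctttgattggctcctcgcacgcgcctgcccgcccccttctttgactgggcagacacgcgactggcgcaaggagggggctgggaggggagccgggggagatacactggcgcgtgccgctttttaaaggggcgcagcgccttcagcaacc
Spdef: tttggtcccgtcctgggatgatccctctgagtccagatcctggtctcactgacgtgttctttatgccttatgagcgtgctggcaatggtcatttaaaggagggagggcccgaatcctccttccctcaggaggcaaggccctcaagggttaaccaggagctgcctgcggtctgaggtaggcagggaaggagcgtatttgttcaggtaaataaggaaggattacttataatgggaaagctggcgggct
Foxa3: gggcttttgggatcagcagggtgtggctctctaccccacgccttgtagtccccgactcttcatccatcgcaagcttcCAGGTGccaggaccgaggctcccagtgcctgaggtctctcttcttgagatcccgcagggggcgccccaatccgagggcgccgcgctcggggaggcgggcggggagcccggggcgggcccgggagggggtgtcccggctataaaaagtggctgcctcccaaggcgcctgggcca
Neurog3: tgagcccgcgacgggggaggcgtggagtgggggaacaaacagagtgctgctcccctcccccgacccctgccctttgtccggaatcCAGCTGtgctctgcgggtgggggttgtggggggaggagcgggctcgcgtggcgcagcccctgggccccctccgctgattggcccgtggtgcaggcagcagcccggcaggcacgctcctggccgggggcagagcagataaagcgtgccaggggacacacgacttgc
Bhlha15: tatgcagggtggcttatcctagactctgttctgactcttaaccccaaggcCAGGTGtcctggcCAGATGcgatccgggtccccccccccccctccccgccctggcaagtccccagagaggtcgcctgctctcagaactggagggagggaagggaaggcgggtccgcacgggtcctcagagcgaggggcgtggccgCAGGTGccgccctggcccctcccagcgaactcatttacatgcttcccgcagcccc
The windows of Atoh1 and Spdef held no CANNTG, those of Foxa3 and Neurog3 held 1 match each, and that of Bhlha15 held 3, of which 1 read CAGATG. The match in the Neurog3 window was the palindrome CAGCTG. These matches describe the letters in the windows and say nothing of binding.

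Atoh1 (ENSMUSG00000073043, chr6:64729125-64731245, plus strand, GRCm38) was highest in goblet-gated cells of both matrices. Its level was 103 CPM in WT (95% interval 97.6 to 110, 1164 UMIs) and 74.4 CPM in KO (69.6 to 79.4, 903 UMIs). Paneth-gated cells came next with 25.7 CPM in WT (24.5 to 26.8) and 20.3 CPM in KO (19.0 to 21.7), followed by stem-gated cells (20.2 and 16.3 CPM) and cycling-gated cells (14.3 and 17.8 CPM). In enteroendocrine-gated and tuft-gated cells it rested on 5 to 7 UMIs, at 3.64 to 9.91 CPM, and these intervals overlapped that of enterocyte-gated cells, at 5.37 CPM in WT and 5.09 CPM in KO. In WT the goblet, Paneth, stem and cycling gates stood apart in that order, and in KO the cycling gate overlapped both the Paneth and the stem gate.

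The Paneth level needs a remark on scale, because 18 genes above 1% of UMIs, defensins and lysozyme among them, took 76.8% of the UMIs of Paneth-gated cells in WT and 75.4% in KO, against 18.9% and 13.5% for the 9 such genes of goblet-gated cells. With the genes above 1% of each gate out of its total, Atoh1 stood at 110.6 CPM in Paneth-gated and 127.5 in goblet-gated cells of WT, and at 82.5 and 86.0 in KO. On that scale, which leaves out different genes in the 2 gates, the gap was narrower and the goblet gate was still the higher.

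Spdef (ENSMUSG00000024215, chr17:27714352-27728955, minus strand), an ETS-family factor of goblet and Paneth maturation, was likewise highest in the goblet gate, with a steeper drop to the next gate (6.08-fold in WT and 4.45-fold in KO, against 4.03-fold and 3.67-fold for Atoh1). Goblet-gated cells had 135 CPM in WT (128 to 142, 1517 UMIs) and 94.2 CPM in KO (88.9 to 99.9, 1144 UMIs). The other gates of both matrices lay between 5.09 and 22.2 CPM, and in WT the Paneth gate (22.2 CPM) and the stem gate (21.9 CPM) did not separate. With the genes above 1% of UMIs left out of the total, Spdef stood at 95.6 CPM in Paneth-gated and 166 in goblet-gated cells of WT. In KO these were 70.3 and 109, and the stem gate had 24.2 in WT and 19.7 in KO. On that scale the drop from goblet to Paneth was smaller and the Paneth gate lay above the stem gate. Enterocyte-gated cells had 6.38 and 6.71 CPM. Over the 8 gates of both matrices, ungated cells included, the log2 levels of Spdef and Atoh1 (after adding 10 CPM) had a Pearson r of 0.99 over 16 points, which share their libraries.

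Gfi1 (ENSMUSG00000029275, chr5:107716657-107726036, minus strand), a zinc-finger repressor that keeps secretory progenitors from the enteroendocrine path, was sparse, with 478 WT and 231 KO UMIs among all cells and at most 3 in a cell. It was again highest in the goblet gate, at 18.3 CPM in WT (15.9 to 20.99, 206 UMIs) and 7.50 CPM in KO (6.04 to 9.20, 91 UMIs). Paneth-gated cells had 2.60 and 1.45 CPM, and enterocyte-gated cells 1.01 and 0.217 CPM on 6 and 2 UMIs. With the genes above 1% of UMIs left out of the total, Gfi1 stood at 11.2 and 5.88 CPM in Paneth-gated and 22.6 and 8.67 in goblet-gated cells. It was not seen in tuft-gated cells, where 3 UMIs would be 4.55 CPM in WT and 4.25 CPM in KO.

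Creb3l1 (ENSMUSG00000027230, chr2:91982328-92024502, minus strand), a membrane-bound factor of the secretory stress response, had its goblet level at 183 CPM in WT (175 to 191, 2056 UMIs) and 81.1 CPM in KO (76.1 to 86.3, 984 UMIs). In WT the stem gate came next at 37.9 CPM, within the interval of the enteroendocrine gate (33.5 CPM), and enterocyte-gated cells were lowest at 9.91 CPM. In KO the order after the goblet gate was cycling (23.6 CPM), enteroendocrine (21.8), stem (17.2), tuft (15.6), Paneth (11.4) and enterocyte (5.63). This order holds in CPM only. With the genes above 1% of UMIs left out of the total, Creb3l1 stood at 104.6 CPM in WT and 46.5 in KO in the Paneth gate. That was below the goblet gate (225.2 and 93.7) and above the stem gate (41.9 and 18.7).

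Foxa3 (ENSMUSG00000040891, chr7:19013284-19023538, minus strand), a forkhead factor, was the member with the most nearly equal goblet levels, 130 CPM in WT (124 to 137, 1466 UMIs) and 129 CPM in KO (122 to 135, 1563 UMIs). It was less confined to the goblet gate than Spdef, since stem-gated cells had 40.1 CPM in WT and 71.0 CPM in KO, and Paneth-gated cells had 36.5 and 47.6 CPM. Enterocyte-gated cells had 10.9 and 10.8 CPM. With the genes above 1% of UMIs left out of the total, the Paneth gate (193.5 CPM) passed the goblet gate (148.8) in KO, while in WT they stood at 157.1 and 160.6.

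**Figure D1:**
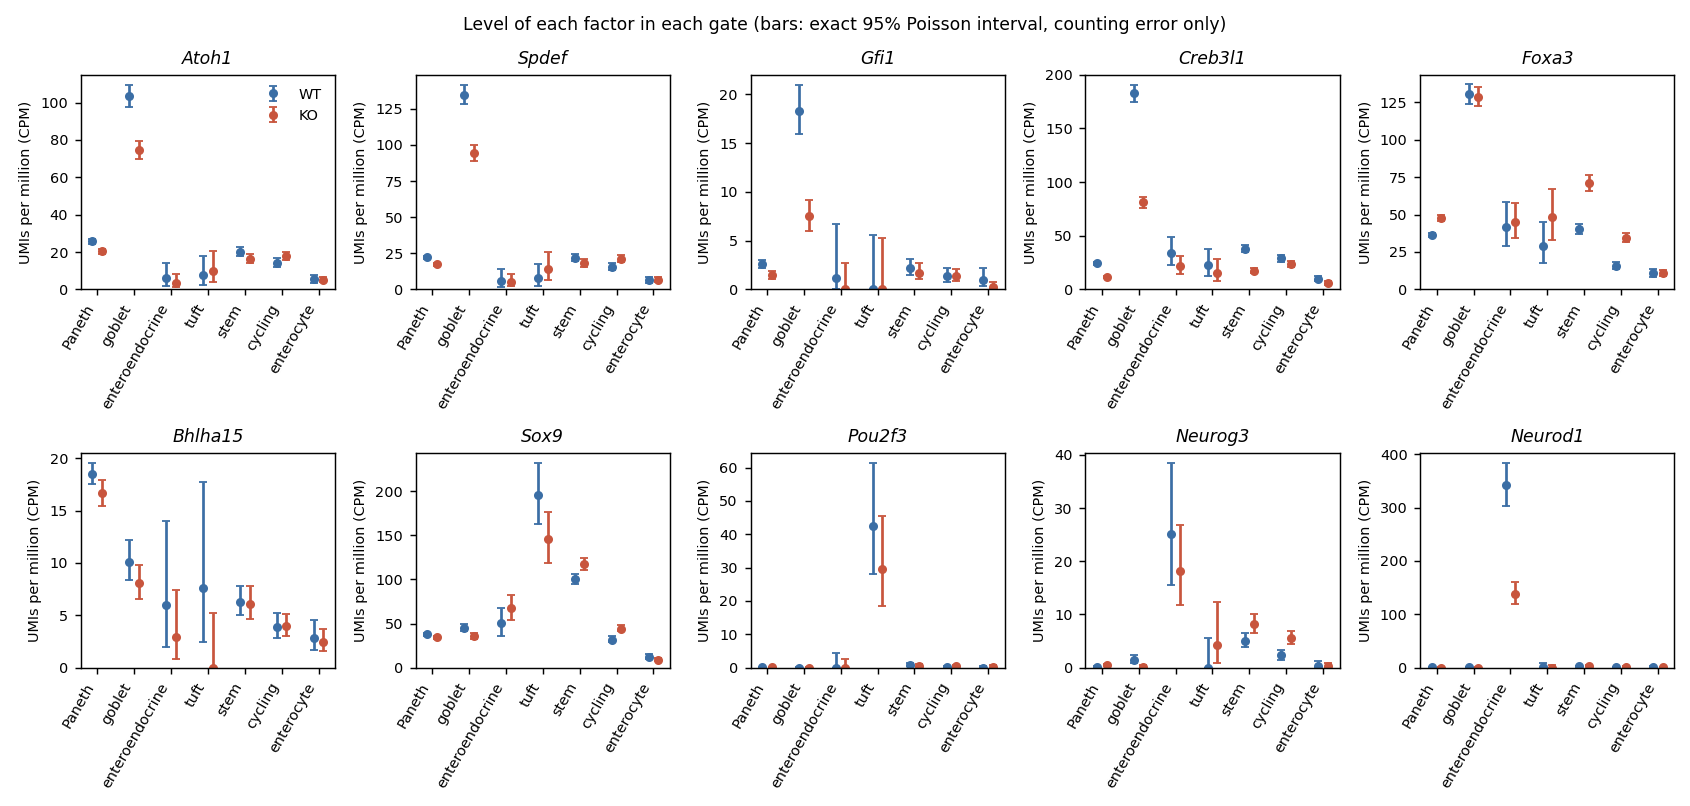
Level of each of the 10 factors in 7 gates in CPM (vertical axes, linear from 0, each with its own range), WT in blue and KO in red, with exact 95% Poisson intervals as bars. Atoh1, Spdef, Gfi1, Creb3l1 and Foxa3 peak in the goblet gate, Bhlha15 in the Paneth gate, Sox9 and Pou2f3 in the tuft gate, and Neurog3 and Neurod1 in the enteroendocrine gate, where Neurod1 stands at 341 CPM in WT and 139 CPM in KO.

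Bhlha15 (ENSMUSG00000052271, chr5:144190286-144194441, plus strand) was the only member with its highest level in Paneth-gated cells, in both matrices. It had 18.5 CPM there in WT (17.6 to 19.5, 1369 UMIs) and 16.7 CPM in KO (15.5 to 17.9, 714 UMIs), against 10.1 and 8.07 CPM in goblet-gated cells. All remaining gates lay at 7.58 CPM or lower, down to 0 of 706690 UMIs in tuft-gated KO cells, and enterocyte-gated cells had 2.85 and 2.49 CPM. With the genes above 1% of UMIs left out, the Paneth level was 79.8 CPM in WT and 67.8 CPM in KO, and the goblet level 12.5 and 9.33 CPM.

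Sox9 (ENSMUSG00000000567, chr11:112782224-112787760, plus strand), an HMG-box factor, had its highest level in tuft-gated cells, with 196 CPM in WT (163 to 232, 129 UMIs) and 146 CPM in KO (119 to 177, 103 UMIs). Stem-gated cells came next at 101 CPM in WT (95.3 to 106) and 117 CPM in KO (111 to 124). In WT the intervals of the tuft and stem gates were apart, and in KO they overlapped. The Paneth gate had 37.9 CPM in WT and 34.6 CPM in KO, less than enteroendocrine-gated cells at 50.3 and 67.6 CPM, but without the genes above 1% of UMIs Sox9 stood at 163.2 and 140.8 CPM in Paneth-gated cells, above the stem gate (111.2 and 127.3). Enterocyte-gated cells were lowest, at 12.1 and 9.09 CPM.

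Pou2f3 (ENSMUSG00000032015, chr9:43123939-43210369, minus strand), a POU-domain factor, had by far its highest level in the tuft gate, at 42.4 CPM in WT (28.2 to 61.3, 28 UMIs) and 29.7 CPM in KO (18.4 to 45.4, 21 UMIs). Every other gate was under 1 CPM, with 0 UMIs in enterocyte-gated cells of WT and 2 in KO. No UMI was found in goblet-gated or enteroendocrine-gated cells of either matrix, where 3 UMIs would be 0.267 CPM in WT and 0.247 CPM in KO for the goblet gate and 3.59 and 2.18 CPM for the enteroendocrine gate. The kept cells held 58 Pou2f3 UMIs in WT and 42 in KO, the fewest of the 10 members, so as many or more of its UMIs lay outside the tuft gate, whose cells are few, as inside it.

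Neurod1 (ENSMUSG00000034701, chr2:79452521-79456751, minus strand), a bHLH factor kept on in hormone-producing cells, had by far its highest level in the enteroendocrine gate, which held 285 of its 434 UMIs in WT and 191 of 322 in KO. Enteroendocrine-gated cells had 341 CPM in WT (303 to 383) and 139 CPM in KO (120 to 160), the next gate, stem, had 2.40 CPM in WT and 4.09 CPM in KO, and enterocyte-gated cells had 1.68 and 0.541 CPM. Cerkl, which overlaps Neurod1 on the same strand, had 17 WT and 9 KO UMIs among all cells, and Gm26755 on the opposite strand had 0 in each.

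Neurog3 (ENSMUSG00000044312, chr10:62133090-62134763, plus strand) had its highest level in the enteroendocrine gate as well, at 25.2 CPM in WT (15.6 to 38.5, 21 UMIs) and 18.2 CPM in KO (11.8 to 26.8, 25 UMIs), but most of its UMIs lay elsewhere. Of 151 UMIs in WT, 68 fell in stem-gated, 26 in cycling-gated and 1 in ungated cells. Of 338 in KO, 86 fell in each of the stem and cycling gates and 115 in ungated cells. As a level, stem-gated cells had 5.10 CPM in WT (3.96 to 6.46) and 8.18 CPM in KO (6.55 to 10.1), and cycling-gated cells 2.33 and 5.52 CPM. Enterocyte-gated cells had 0.336 and 0.325 CPM, and their intervals lay below those of both progenitor gates.

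Shares of cells with a UMI were taken after each cell was thinned to 2000 UMIs, which takes out the depth gap. Creb3l1 was found in 32.2% of goblet-gated cells in WT (29.8% to 34.6%) and 14.8% in KO (12.2% to 17.8%), against 2.27% and 0.832% of enterocyte-gated cells, and unthinned in 63.7% and 69.8%. Neurod1 was found in 53.0% of enteroendocrine-gated cells in WT (45.1% to 60.9%) and 30.6% in KO (21.7% to 40.7%), unthinned in 75% and 73.5%, with 0.0944% and 0.208% in enterocyte-gated cells. Gfi1 was found in 3.75% of goblet-gated cells in WT and 1.08% in KO, unthinned in 12.1% and 12.2%. Atoh1 was found in 6.07% of Paneth-gated cells in WT and 3.78% in KO, unthinned in 40% and 52.7%, with 0.850% and 0.520% in enterocyte-gated cells. For these 4 pairs of gene and gate the thinned intervals of the matrices did not overlap. Thinning was a single random draw, and for Atoh1 in the Paneth gate it left 198 WT and 38 KO cells with a UMI. The ratio of this pair with equal weights per cell, given below, showed almost no difference. For Atoh1 (19.4% and 15.9% of goblet-gated cells), Spdef (23.2% and 21.8%), Foxa3 (24.3% and 28.2%), Sox9 (37.2% and 31.2% of tuft-gated cells), Bhlha15 (4.45% and 4.38% of Paneth-gated cells) and Pou2f3 (8.14% and 12.5% of tuft-gated cells) the thinned intervals overlapped.

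KO was then set against WT in the gate where each factor is known to act, as the log2 ratio of its share of UMIs, with the exact conditional interval. Within goblet-gated cells Creb3l1 was at -1.17 (-1.28 to -1.06) and Gfi1 at -1.29 (-1.66 to -0.93), which made them the 2 of 7 members with at least 50 UMIs there that were at least 2-fold lower in KO. Of all 10096 genes tested in that gate, 16.4% were at least 2-fold lower. Atoh1 was at -0.48 (-0.60 to -0.35), Spdef at -0.52 (-0.63 to -0.41) and Foxa3 at -0.02 (-0.12 to 0.09). All 7 values were below 0, as was the median of all genes, -0.31, so the median of the members, -0.48, was 0.17 below it. With each cell thinned to 2000 UMIs in a random draw, Atoh1 was at -0.22, Spdef at -0.065 and Foxa3 at 0.25. The thinned mean has the same expected value as giving each cell the same weight, with the noise of the draw added. With equal weights the ratios of Atoh1 and Spdef, given in the last section, were lower than the thinned ones.

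Ratios in these matrices ran with gene length. When genes were cut by summed exon length into 4 classes of equal size, all 10 factors fell in the 2 shorter classes of the goblet gate. The shortest (median 1884 bases) had a median ratio of 0.28 in the goblet gate and the longest (9197 bases) one of -0.80, and the same order held in each other gate. Set against genes of their own class, Creb3l1 stood 1.46 lower (relative log2 ratio -1.46), Spdef at -0.80, Atoh1 at -0.76, Foxa3 at -0.30 and Gfi1, which is in the next class, at -1.11. The part of length, or of whatever runs with it, in the members' ratios was not tested. Creb3l1 was lower in KO in enterocyte-gated cells too, at -0.82 (-1.38 to -0.25) and at -0.95 against genes of like length. It was the only 1 of 5 members with at least 50 UMIs in that gate whose interval left out 0.

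In Paneth-gated cells 2 of 8 members with at least 50 UMIs were at least 2-fold lower in KO, against 9.79% of 10856 genes. They were Creb3l1, at -1.08 (-1.23 to -0.94), and Neurod1, at -1.21 (-2.31 to -0.24), which rested on 44 and 11 UMIs there. The Neurod1 levels in this gate, 0.595 CPM in WT and 0.257 CPM in KO, were no higher than in enterocyte-gated cells, 1.68 and 0.541 CPM. Atoh1 was at -0.34 (-0.46 to -0.22), Sox9 at -0.13 (-0.22 to -0.04) and Bhlha15 at -0.15 (-0.28 to -0.02). The last 2 were close to the median of all genes in the gate, -0.22, and stood 0.09 and 0.07 above it. With each cell given the same weight Atoh1 was at -0.00038 and Bhlha15 at 0.17. The first came to about 0 and the second turned in sign. After thinning, whose mean has the same expected value, Atoh1 was at -0.66. Foxa3 was the exception, higher in KO at 0.39 (0.30 to 0.47), though the median of genes of like length was 0.24, which left it 0.15 above them.

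In enteroendocrine-gated cells Neurod1 was at -1.30 (-1.57 to -1.03), the only 1 of 4 members with at least 50 UMIs that was at least 2-fold lower, against 15.2% of 5135 genes. The hormone products that define the gate were also lower in KO, at 29957 against 49436 CPM in WT, with a median share per cell of 2.51% against 6.22%, the KO cells were deeper (medians of 13615.5 and 3223.5 UMIs), and a UMI of Mki67 or Top2a was found in 66.3% of them against 36.6% in WT, while Mki67 was at 108 against 234 CPM. The part of these differences in the Neurod1 ratio was not tested. Neurog3 was at -0.47 with an interval from -1.36 to 0.44, so no difference was detectable at this depth, and with each cell given the same weight it was at 0.75. The other 3 members had intervals that held 0, namely Sox9 at 0.43, Foxa3 at 0.10 and Creb3l1 at -0.62. The gate mixes cells whose hormones differ. Among cells with more Tac1 and Tph1 (enterochromaffin products) than peptide hormone UMIs, 106 in WT and 45 in KO, Neurod1 had 372 CPM (320 to 430) in WT and 179 CPM (145 to 218) in KO. Among cells with more peptide hormone UMIs, 51 in each matrix, it had 295 CPM (237 to 363) and 114 CPM (92.3 to 140), so it was lower in KO in both kinds.

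In tuft-gated cells Pou2f3 was at -0.51 (-1.40 to 0.35), which 28 and 21 UMIs cannot tell from 0, and at 0.62 after thinning. Sox9 was at -0.42 (-0.81 to -0.04) and Foxa3 at 0.74 (-0.11 to 1.63), and neither of these 2 members with at least 50 UMIs was 2-fold lower, against 12.2% of 3578 genes.

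**Figure D2:**
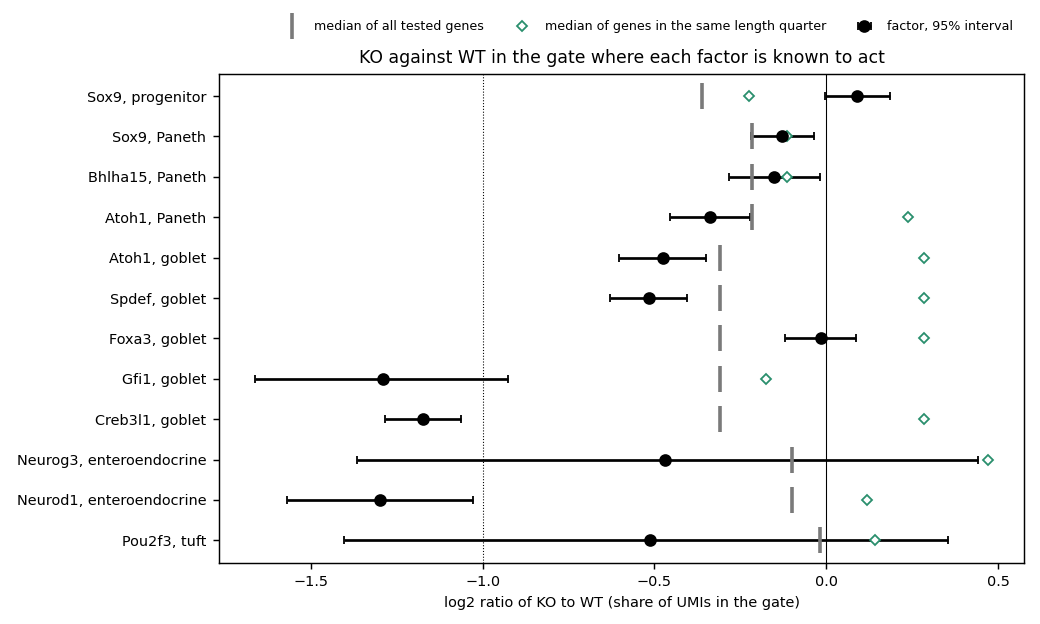
Log2 ratio of KO to WT of the share of UMIs (horizontal axis) for 12 pairs of a factor and a gate, with 95% counting intervals, the median of all tested genes in the gate as a grey tick and the median of genes of the same length class as an open green diamond. Creb3l1 and Gfi1 in the goblet gate and Neurod1 in the enteroendocrine gate lie beyond the dotted line at -1, Sox9 in progenitors lies at 0.09, and Foxa3 in the goblet gate lies at -0.02.

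In progenitors the ratios of the members ran both ways. In the stem gate 1 of 8 members was at least 2-fold lower in KO, against 14.3% of 10426 genes, and it was Creb3l1 at -1.14 (-1.39 to -0.89). Atoh1 at -0.31 (-0.60 to -0.03) and Spdef at -0.27 (-0.54 to -0.0008) were lower too. Foxa3 at 0.82 (0.66 to 0.99), Neurog3 at 0.68 (0.21 to 1.16), Neurod1 at 0.77 (0.08 to 1.48) and Sox9 at 0.22 (0.11 to 0.34) were higher in KO, while the median of all genes was -0.35. Against genes of like length they stood, in that order, at 0.65, 0.50, 0.59 and 0.44, with Creb3l1 at -1.32, Atoh1 at -0.49 and Spdef at -0.45. In the cycling gate none of 7 members was at least 2-fold lower, against 16.4% of 10238 genes, while Foxa3 was at 1.14 (0.89 to 1.39) and Neurog3 at 1.24 (0.60 to 1.94). Atoh1 at 0.32, Spdef at 0.44 and Sox9 at 0.48 also had intervals above 0 there, and Creb3l1 at -0.30 (-0.52 to -0.08) had one below. Against genes of like length in the cycling gate, Atoh1 stood at 0.11, Spdef at 0.23, Sox9 at 0.71, Foxa3 at 0.93, Neurog3 at 1.03 and Creb3l1 at -0.51. With stem and cycling cells joined, Sox9 was at 0.09 (-0.0046 to 0.19), Neurog3 at 0.78 (0.41 to 1.16), Foxa3 at 0.76 (0.63 to 0.90) and Creb3l1 at -0.69 (-0.85 to -0.53), while the intervals of Atoh1 and Spdef held 0. The Neurog3 UMIs came from only 19 WT and 15 KO stem-gated cells and from 6 and 18 cycling-gated cells. Its intervals take each UMI as independent and are therefore too narrow. The same thresholds need not hold the same cells in both matrices, because the cycling panel itself stood at 2395 CPM in WT and 1363 CPM in KO of the cycling gate and Mki67 at 649 and 169 CPM. Its part in these ratios was not tested.

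Neurog3 was concentrated in few cells. It was found in 47 WT and 81 KO cells, of which 11 and 23 had 5 or more UMIs and held 50.3% and 72.5% of all its UMIs, and the highest cell had 12 UMIs in WT and 23 in KO. Only 6 of the 47 and 9 of the 81 were enteroendocrine-gated, while 25 and 33 were in the stem or cycling gates. Within the enteroendocrine gate the cells with Neurog3 had a lower median share of hormone products than those without, 1.30% against 6.60% in WT and 1.05% against 2.72% in KO, and they were deeper (9365 against 3095 and 18767 against 13421 UMIs). Of the cells with 5 or more Neurog3 UMIs, 1 of 11 in WT and 1 of 23 in KO had entered the enteroendocrine gate.

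Neurod1 was found far more often in cells with Neurog3 than in cells without it. Of cells with Neurog3, 19 of 47 in WT (40.4%, 26.4% to 55.7%) and 27 of 81 in KO (33.3%, 23.2% to 44.7%) also had a Neurod1 UMI, against 1.99% and 2.06% of cells without Neurog3. The depth of the 2 kinds of cell in WT was 10133 and 9129 UMIs, and in KO 22673 and 15255 UMIs. After thinning, 20% of 20 cells with Neurog3 in WT and 9.68% of 31 in KO had Neurod1, against 1.09% and 0.769% of the rest. A UMI of Mki67 or Top2a, genes of the cycling panel, was found in 83.0% of the WT and 80.2% of the KO cells with Neurog3, against 55.8% and 57.1% of those without. These shares are unthinned, the cells without Neurog3 come from all gates, and such a UMI is not read as a sign of division.

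**Figure D3:**
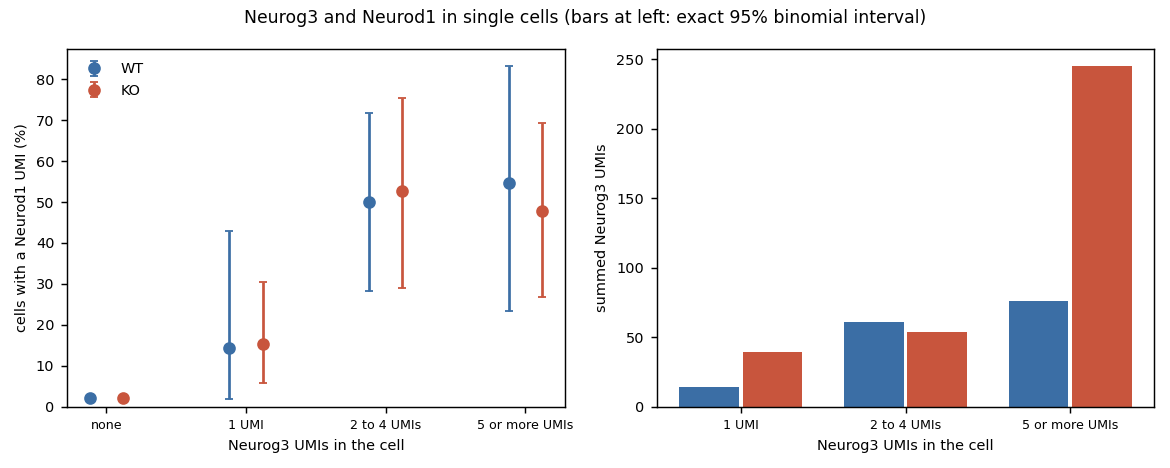
At left, the share of cells with a Neurod1 UMI (vertical axis, percent, exact 95% binomial intervals) by the number of Neurog3 UMIs in the cell, and at right the summed Neurog3 UMIs of those cells, WT in blue and KO in red. The share is 1.99% and 2.06% without Neurog3 and 54.5% and 47.8% with 5 or more UMIs, and the 23 KO cells of that last class hold 245 UMIs against 76 in 11 WT cells.

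The overlap of Atoh1 and Spdef in single cells moved with depth. In goblet-gated cells of WT, 62.7% of cells with Atoh1 also had Spdef against 51.7% of cells without it, but the former had a median of 6916 UMIs and the latter 5830.5, and after thinning the shares were 25.3% and 22.7%. In KO they were 26.2% and 20.9% after thinning. Pou2f3 and Sox9 met in 18 of 21 tuft-gated WT cells with Pou2f3 and 13 of 17 in KO, where 70.8% and 80.6% of the other tuft-gated cells had Sox9 as well.

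The gated cells were next ordered by their share of product UMIs, in 3 equal bins within each matrix, as a measure of how far a cell had filled with product. In goblet-gated cells the median product share went from 3.50% to 23.8% in WT and from 2.80% to 14.6% in KO. Along these bins Foxa3 went from 102 to 185 CPM in WT and from 114 to 170 CPM in KO, Atoh1 from 90.1 to 126 CPM and from 69.1 to 87.3 CPM, and Gfi1 from 15.1 to 23.1 CPM and from 5.76 to 9.55 CPM. Sox9 ran the other way, from 57.7 to 25.4 CPM in WT and from 43.4 to 19.4 CPM in KO, as did Mki67, from 435 to 27.4 CPM and from 92.4 to 34.6 CPM. For Foxa3, Atoh1 and Sox9 the intervals of the lowest and highest bins were apart in both matrices, for Atoh1 in KO only just, and for Gfi1 they overlapped. Creb3l1 had no such trend, at 192 and 166 CPM in WT and 80.2 and 87.97 CPM in KO. The highest bin was the shallowest, with median depths of 4964 (WT) and 13228 UMIs (KO), where the lowest bin had 8578 and 19558.

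In Paneth-gated cells Sox9 again ran down with the product share, from 47.4 to 28.5 CPM in WT and from 51.9 to 22.5 CPM in KO, on a total that the products themselves fill. With the Paneth panel left out of the total it stood at 102, 118 and 97.7 CPM in the 3 WT bins and 102, 95.3 and 74.9 in KO. On the same scale Bhlha15 ran up from 41.6 to 62.4 in WT and from 30.6 to 57.6 in KO, and Atoh1 from 61.9 to 84.8 and from 47.5 to 60.7. In CPM Atoh1 ran from 28.7 to 24.7 in WT and from 24.1 to 18.2 in KO, so its direction along the Paneth bins depended on the total used.

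In enteroendocrine-gated cells Neurog3 lay mostly in the lowest bin. All 21 WT UMIs of Neurog3 fell in the lowest bin of hormone share (43.1 CPM, with 0 UMIs in each higher bin), and in KO 18 of 25 did (31.5 CPM). Neurod1 was at 164 CPM in the lowest WT bin (131 to 204), 639 CPM in the middle and 533 CPM in the highest (427 to 659), and in KO at 114, 140 and 189 CPM, where the intervals of the lowest and highest bins overlapped. In tuft-gated cells Sox9 went from 103 to 448 CPM across the WT bins (52 UMIs in the highest) and from 134 to 168 CPM in KO. Pou2f3 went from 26.6 to 86.1 CPM in WT and from 26.8 to 53.3 CPM in KO on 7 to 10 UMIs for the outer bins, too few to separate.

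**Figure D4:**
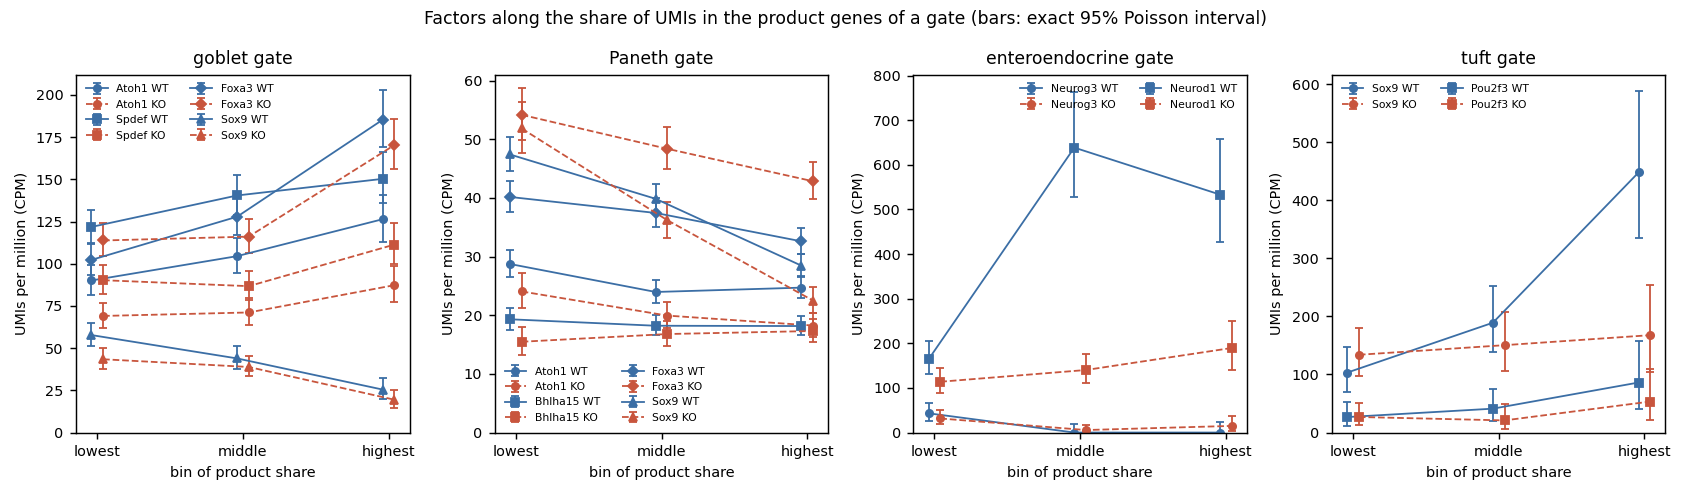
Level of selected factors in CPM (vertical axes from 0) in 3 equal bins of product share (horizontal axes, lowest to highest) in the goblet, Paneth, enteroendocrine and tuft gates, WT as blue solid and KO as red dashed lines, with exact 95% Poisson intervals. In the goblet gate Foxa3 ends at 185 and 170 CPM and Sox9 at 25.4 and 19.4 CPM, and in the enteroendocrine gate Neurog3 is found mostly in the lowest bin.

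A UMI of Mki67 or Top2a was found in 53.7% of goblet-gated cells in WT and 65.3% in KO. It was also found in 45.3% and 54.5% of Paneth-gated cells, and Mki67 was at 296 and 74.3 CPM in the goblet gate, so the share rose in the deeper KO cells while the level did not, and such a UMI is not read as a sign of division. Goblet-gated cells with it carried less Foxa3 than the rest of the gate, 109 against 170 CPM in WT and 116 against 167 CPM in KO, less Spdef (122 against 159 and 85.5 against 120 CPM) and less Atoh1 (94.5 against 120 and 69.5 against 88.9 CPM), with intervals apart for all 3 in both matrices. Creb3l1 was at 177 against 194 CPM in WT and 81.0 against 81.1 CPM in KO. Sox9 was the reverse, at 49.7 against 37.6 CPM in WT and 39.3 against 25.4 CPM in KO. In Paneth-gated cells the split moved the WT level of Atoh1 little, 26.1 against 25.2 CPM. The cells with such a UMI were the deeper ones (8271.5 against 5263 UMIs for WT goblet-gated cells), and the part of depth was not tested.

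Other genes of the pathways were read by lists. Of 10 Notch pathway and lineage choice genes, 9 had at least 50 UMIs in progenitors, 1 was at least 2-fold lower in KO and 0 higher, against 15.5% and 0.554% of 11194 genes, with a median of -0.46 against -0.36 for all genes. Id3 (112.7 and 136.0 CPM in WT and KO), Id1 (106.0 and 129.9 CPM) and Hes1 (82.1 and 59.7 CPM), the Notch target that represses Atoh1, had the most UMIs, at log2 ratios of 0.27, 0.29 and -0.46. Rbpj, the DNA-binding partner of Notch, was at -1.28, and Dll1, a Notch ligand of secretory progenitors, was at -0.64. Rbpj and Dll1 are named after their values were seen.

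Of 13 further enteroendocrine factors, 10 had at least 50 UMIs in enteroendocrine-gated cells, 6 of them were at least 2-fold lower in KO and 0 higher, against 15.2% and 4.93% of all genes there, and the median was -1.05 against -0.10 for all genes, next to -1.30 for Neurod1. Those with the most UMIs were Fev, a factor of serotonin-producing cells (123 CPM in WT and 108 CPM in KO, log2 ratio -0.19), Isl1 (126 and 98.9 CPM, -0.35), and Insm1 (83.9 and 57.5 CPM, -0.55). Nearly all Isl1 UMIs lay in cells with more peptide hormone UMIs, at 338 CPM (276 to 411) in WT and 167 (140 to 198) in KO. Fev was at 73.0 and 54.1 CPM in those cells, and at 158 and 186 CPM in cells with more Tac1 and Tph1. Rfx6, at 79.1 and 13.8 CPM (-2.52, -3.34 to -1.76), lay lowest of the 10 and is named after its value was seen. Of 6 tuft factors 5 had at least 50 UMIs in tuft-gated cells, 2 were at least 2-fold lower and 0 higher, against 12.2% and 1.79% of all genes, with a median of -0.32 against -0.02. Sox4 (211 and 269 CPM) was at 0.35, Spib (145.5 and 63.7 CPM) at -1.19 and Hmx2 (81.8 and 69.3 CPM) at -0.24.

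Of 10 Paneth and goblet factors and genes of the secretory machinery, 9 had at least 50 UMIs in goblet-gated cells, 3 were at least 2-fold lower in KO and 0 higher, against 16.4% and 2.13% of all genes, with a median of -0.74 against -0.31 for all genes. Agr2, a protein disulfide isomerase that mucus folding needs, was at 14026 and 14364 CPM (0.03), Klf4, a goblet differentiation factor, at 331 and 119 CPM (-1.48), and Xbp1, a factor of the unfolded protein response, at 262 and 159 CPM (-0.72). Creb3l4, the relative of Creb3l1, was at 94.7 and 56.8 CPM (-0.74) and is named after its value was seen. Of 6 absorptive factors in enterocyte-gated cells 1 was at least 2-fold lower and 0 higher, against 18.5% and 2.66% of 8676 genes, and the median was -0.59 against -0.36, so a list median below that of all genes was seen outside the secretory lists too. Maf (357 and 217 CPM) was at -0.71, Klf5 (286 and 181 CPM) at -0.66 and Hnf4g (254 and 74.3 CPM) at -1.77.

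By the pattern of levels over the 8 gates of both matrices (16 points), the genes most like each factor were ranked among 10948 genes outside the panels, lists and members. Rep15, Slc17a9 and Tpsg1 came highest for both Atoh1 (r from 0.94 to 0.98) and Spdef (0.97 to 0.99), Galntl6, Fer1l6 and Kcnk6 for Gfi1 (0.97 to 0.98), Txndc5, Slc12a8 and Dnajc10 for Creb3l1 (0.96 to 0.99), and Fxyd3, Slc50a1 and Atp2c2 for Foxa3 (0.89 to 0.91). For Bhlha15 they were Pycr1, Lgmn and Nupr1 (0.92 to 0.94), and for Sox9 Slc23a3, Cited4 and Epn3 (0.93 to 0.94). Pou2f3 was most like Ly6g6f, Gng13 and Sh2d7 (0.996 to 0.999), Neurod1 most like Olfm1, Vwa5b2 and Scg5 (0.996 to 0.999) and Neurog3 most like Fabp5, Mnx1 and Chd3os (0.94 to 0.95). Outside their highest gate Pou2f3 and Neurod1 were low next to the added 10 CPM. Their r therefore rests mainly on the points of that gate, and other genes confined to it would score high too. Among the members themselves, Neurog3 and Neurod1 had an r of 0.88, Sox9 and Pou2f3 of 0.69 and Gfi1 and Spdef of 0.93.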

How the data were processed

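The deposited matrices held raw UMI counts per gene and cell barcode, 1 matrix per group, which the authors had made with Cell Ranger from libraries of a 3′ v2 kit. The matrix headers name version 4.0.0, the submitters' processing notes 2.1.1 with mm10. The members and all lists were chosen with earlier results of these data known. Cells with at least 200 genes, at most 30% mitochondrial UMIs and at least 2000 UMIs were kept (9929 of 15987 WT and 5623 of 12763 KO barcodes). The 2000 minimum was set after the data were seen, because the 3166 WT and 3035 KO shallower cells had a median of 30.1% and 26.5% of UMIs in Paneth products. A gate also needed 3 UMIs and 2 genes of its panel. Cells passing several differentiated gates (211 WT, 80 KO) were left out, and no doublet caller was run. Levels are CPM of summed UMIs with exact Poisson intervals at 95%, ratios have exact conditional binomial intervals, shares exact Clopper-Pearson intervals. Genes with at least 50 UMIs over both matrices were tested against 2-fold. Levels were compared across gates for a gene, not between genes. Depth (127694837 WT and 114575689 KO UMIs in kept cells) limits Neurog3 and Pou2f3 most. Of the identifiers, 27645 of 27998 matched GENCODE M21 (GRCm38), used for positions and exon length. Named were all 10 members, the list members with the most UMIs in a home gate and the 3 genes most alike in pattern with at least 200 UMIs. The ratio was checked on simulated counts. Python 3.11.15, numpy 2.4.6, scipy 1.17.1 and pandas 2.3.3 were used.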

Additional observations from a re-analysis of the deposited data

Results flagged for a closer look

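For 4 members the log2 ratio of KO to WT had intervals on opposite sides of 0 in different gates, which is what marked their 16 values. The difference between gates was not tested, since each matrix is 1 sample. Atoh1 was lower in KO in the Paneth (-0.34), goblet (-0.48) and stem gates (-0.31) and higher in the cycling gate (0.32). Spdef did the same, at -0.36, -0.52, -0.27 and 0.44 in that order of gates. Sox9 was lower in the Paneth (-0.13), goblet (-0.35) and tuft gates (-0.42) and higher in the stem (0.22) and cycling gates (0.48). Against genes of like length the cycling values were 0.11 for Atoh1, 0.23 for Spdef and 0.71 for Sox9. Neurod1 was lower in the enteroendocrine (-1.30) and Paneth gates (-1.21) and higher in the stem gate (0.77), where it rested on 32 UMIs in WT and 43 in KO. Its Paneth level was no higher than that of enterocyte-gated cells in either matrix.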

How the results depend on the processing

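For the 12 pairs of factor and gate, 177 log2 ratios of KO to WT were recomputed under other settings. Of these, 136 stayed within the counting interval, 30 moved and 11 turned in sign. A turn was counted only where the main interval left out 0. Pairs whose main interval held 0 could change sign without being counted. Foxa3 in the goblet gate was below 0 in 7 of 15 settings, and Neurog3 and Pou2f3 in 13 of 15. As mean UMIs per cell, which carries the greater depth of KO cells, the ratios were 0.57 for Atoh1 in the Paneth and 0.89 in the goblet gate, 0.78 for Sox9 in the Paneth gate and 0.99 in progenitors, 0.85 for Spdef, 0.075 for Gfi1, 1.35 for Foxa3, 0.99 for Neurog3, 0.17 for Neurod1, 0.43 for Pou2f3, 0.76 for Bhlha15 and 0.19 for Creb3l1. With each cell given the same weight they were -0.00038 and -0.35 for Atoh1 (Paneth, goblet), -0.31 for Spdef, 0.75 for Neurog3, 0.17 for Bhlha15 and -1.05 for Creb3l1. With cells thinned to 2000 UMIs they were -0.66 and -0.22 for Atoh1 (Paneth, goblet), -0.034 for Sox9 in the Paneth gate, -0.065 for Spdef, -1.82 for Gfi1, 0.25 for Foxa3, 0.62 for Pou2f3 and -1.34 for Creb3l1. Thinning used a single random draw. The thinned mean has the same expected value as equal weights per cell, with the noise of the draw added. Further settings, chosen after seeing the data, took off a median. Less that of all genes, the ratios were -0.12 and -0.17 for Atoh1, 0.089 for Sox9 in the Paneth gate and 0.45 in progenitors, -0.21 for Spdef, 0.29 for Foxa3, 0.066 for Bhlha15 and -0.86 for Creb3l1. Less that of genes of like length, they were -0.58 and -0.76 for Atoh1, -0.015 and 0.31 for Sox9, -0.80 for Spdef, -0.30 for Foxa3 and -1.46 for Creb3l1. For turns and moves other than these medians the cause was not tested.

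The share of genes at least 2-fold lower moved with the minimum of UMIs. With at least 200 UMIs it was 675 of 8379 (8.06%, Paneth), 1042 of 7343 (14.2%, goblet) and 982 of 7907 (12.4%, stem). In the enteroendocrine gate it was 131 of 1475 (8.88%) and in the tuft gate 43 of 900 (4.78%). With at least 20 UMIs these last gates had 1665 of 8264 (20.1%) and 1168 of 6577 (17.8%). The ratio of gate shares turned to -0.75 for cycling with thresholds doubled, to 0.28 for stem with thresholds set to 50%, and to -0.031 for cycling with no minimum of UMIs, a setting also chosen after seeing the data, as were a Paneth gate at 50% and leaving out shared barcodes. Doubled thresholds left no Paneth-gated cell. No paired analysis was possible because each group was 1 pooled matrix, and leaving out a replicate could not be run for the same reason. Depth limits Neurog3 and Pou2f3, whose home ratios rest on under 50 UMIs.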
